A study of Mus musculus with 6 samples.

Results

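The endothelial genes described here are 32 genes used as markers of the cells that line blood and lymph vessels. They were chosen by symbol: every row of the deposited expression table whose gene symbol is on the list was taken, and all 32 were found among 17256 genes. The list holds 5 vascular receptor tyrosine kinases, 5 other receptors, 9 junction and surface proteins, 5 transcription factors, 6 secreted, matrix or specialised vessel proteins and 2 lymphatic genes.

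The libraries are bulk RNA-seq of epithelium from the antrum, the part of the stomach next to the pylorus, of mice that the labels give as C57BL/6. All 6 libraries come from animals given MNNG, an alkylating carcinogen, and a drug spelled Ranitine in the labels, over 20 weeks as a model of atrophic gastritis. For 2 further weeks, 3 libraries had vehicle and 3 had PEEPA-P5, given by gavage, a compound that the labels name by this code alone. Untreated mice are not part of the comparison, and age and sex are not given in the labels. Whether each library stands for a different mouse is not stated in the labels. The p-values here set the difference between groups against the spread among libraries of a group. How much of that spread is technical is not known.

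Endothelial cells form the inner wall of vessels and keep their identity through ETS and SOX factors. They sense VEGF through the receptors Kdr, Flt1 and Flt4 and angiopoietins through Tek, and they hold to each other through junction proteins such as VE-cadherin (Cdh5) and Pecam1. In the stomach, capillaries run in the connective tissue between the glands.

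Promoter sequences are shown for the tested members with values in every library below that have an entry in the RefSeq promoter table. They are given for reference, and a link between these sequences and the genes' levels was not tested. RefSeq windows on GRCm38.p6 were matched for 14 of the 32 members. Each sequence below is the 250 bases upstream of the start, read 5′ to 3′ on the gene's strand, and capitals mark the ETS core letters GGAA or their complement TTCC. The windows lie at chr2:32646345-32646594 (plus strand) for Eng, chr12:58269259-58269508 (minus) for Clec14a, chr5:75978456-75978705 (minus) for Kdr, chr4:118489850-118490099 (minus) for Tie1 and chr4:94739039-94739288 (plus) for Tek.
Eng: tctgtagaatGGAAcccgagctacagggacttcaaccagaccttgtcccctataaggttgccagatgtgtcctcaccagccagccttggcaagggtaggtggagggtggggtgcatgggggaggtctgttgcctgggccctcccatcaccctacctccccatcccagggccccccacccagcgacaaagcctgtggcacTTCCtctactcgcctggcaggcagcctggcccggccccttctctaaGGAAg
Clec14a: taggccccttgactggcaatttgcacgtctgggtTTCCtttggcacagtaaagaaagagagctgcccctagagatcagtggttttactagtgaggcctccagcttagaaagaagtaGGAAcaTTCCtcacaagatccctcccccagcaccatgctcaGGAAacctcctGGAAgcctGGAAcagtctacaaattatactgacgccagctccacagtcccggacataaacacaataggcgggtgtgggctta
Kdr: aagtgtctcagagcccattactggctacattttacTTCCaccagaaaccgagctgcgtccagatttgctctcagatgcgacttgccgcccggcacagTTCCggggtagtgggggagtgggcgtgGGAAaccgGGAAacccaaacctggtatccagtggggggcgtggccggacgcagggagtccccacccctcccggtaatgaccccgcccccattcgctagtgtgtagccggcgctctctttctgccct
Tie1: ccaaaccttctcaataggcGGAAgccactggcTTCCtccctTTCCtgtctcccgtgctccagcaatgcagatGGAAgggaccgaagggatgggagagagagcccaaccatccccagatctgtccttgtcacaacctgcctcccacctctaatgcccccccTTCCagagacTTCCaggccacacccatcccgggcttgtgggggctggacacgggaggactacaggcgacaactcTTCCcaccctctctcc
Tek: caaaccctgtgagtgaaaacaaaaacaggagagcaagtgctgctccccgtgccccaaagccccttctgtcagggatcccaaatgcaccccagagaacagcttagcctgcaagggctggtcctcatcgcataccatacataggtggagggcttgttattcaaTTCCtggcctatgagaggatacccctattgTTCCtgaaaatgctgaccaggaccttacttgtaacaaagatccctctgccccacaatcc
GGAA was found on either strand 7 times in the window of Tie1, 6 times in Clec14a, 4 times in Kdr, 3 times in Eng and 2 times in Tek. Over all 19 windows of the 14 members, 17 (89.5%) held it, against 93.4% of 32851 windows of the same length over all genes. The longer form AGGAAG (or CTTCCT), which contains GGAA, was in 9 of the 19 windows (47.4%) against 29.5% of all windows, and CGGAAG (or CTTCCG) was in 1 (5.26%) against 13.6%. The SOX letters ACAAT (or ATTGT) were in 6 windows (31.6%) against 27.7%, and TATAAA (or TTTATA) in 3 (15.8%) against 12.4%. These are counts of letters and not of bound sites.

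Epcam, an epithelial marker, was at 93.4 to 157 TPM (a level scaled by transcript length and to the same sum in each library). The pit cell mucin Muc5ac was at 1568 to 2049 TPM. Other gastric genes varied widely between libraries. Gast was at 9492, 6822 and 610 TPM in vehicle and at 7032, 4990 and 199 TPM in PEEPA-P5. Pgc ran from 2065 TPM in PEEPA-P5 3 to 68237 TPM in vehicle 3, and Muc6 from 80.4 to 500 TPM in the same libraries. Total counts ran from 16388852 to 16903559 per library. One library, PEEPA-P5 3, stood apart: its counts of the Y-linked genes Ddx3y, Uty, Kdm5d and Eif2s3y were 1, 8, 0 and 3, while each of these genes had 231 to 935 counts in every other library. Both libraries numbered 3 also differed from the other 4 at Eno1b, with 2147 counts in vehicle 3 and 1851 in PEEPA-P5 3 against at most 2.78 elsewhere, and at Zfp990, with 87.0 and 36.0 counts against 0. In vehicle 3, beta-globin reads were assigned to Hbb-b1 (87.3 TPM) and not to Hbb-bs (0.87 TPM), whereas vehicle 2 had 0.19 and 96.85 TPM of them. PEEPA-P5 3 had 4.68 and 3.18 TPM. Hbb-b1 and Hbb-bs are near-identical copies from alternative haplotypes, and what sets the split of reads between them was not tested. Of 2 further copies, Hbb-b2 had 74 counts in vehicle 3, 2 in PEEPA-P5 3 and 0 elsewhere. Hbb-bt had 0 counts in vehicle 3, 1.66 in PEEPA-P5 3 and 11.5 to 45.7 elsewhere. These genes were picked after their values were seen, the part of these differences in the endothelial results was not tested, and log2 differences below are given with and without PEEPA-P5 3.

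Endothelial genes were expressed at a low level in every library. Their TPM summed to 71.7, 114 and 80.4 in vehicle 1, 2 and 3 and to 53.5, 74.4 and 12.7 in PEEPA-P5 1, 2 and 3. The sum was highest in vehicle 2 and lowest in PEEPA-P5 3, and PEEPA-P5 2 lay between vehicle 1 and vehicle 3. The members made up 0.0114% of all TPM at most and 0.00127% at least. Their summed counts per library ran from 4333 down to 467, and 27 of the 32 members had 20 or fewer counts in PEEPA-P5 3, which sets how precisely that library can be read. Averaged over the 6 libraries, 17 members were under 1 TPM, 14 were between 1 and 10 TPM, and Plvap alone was above 10 TPM.

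**Figure D1:**
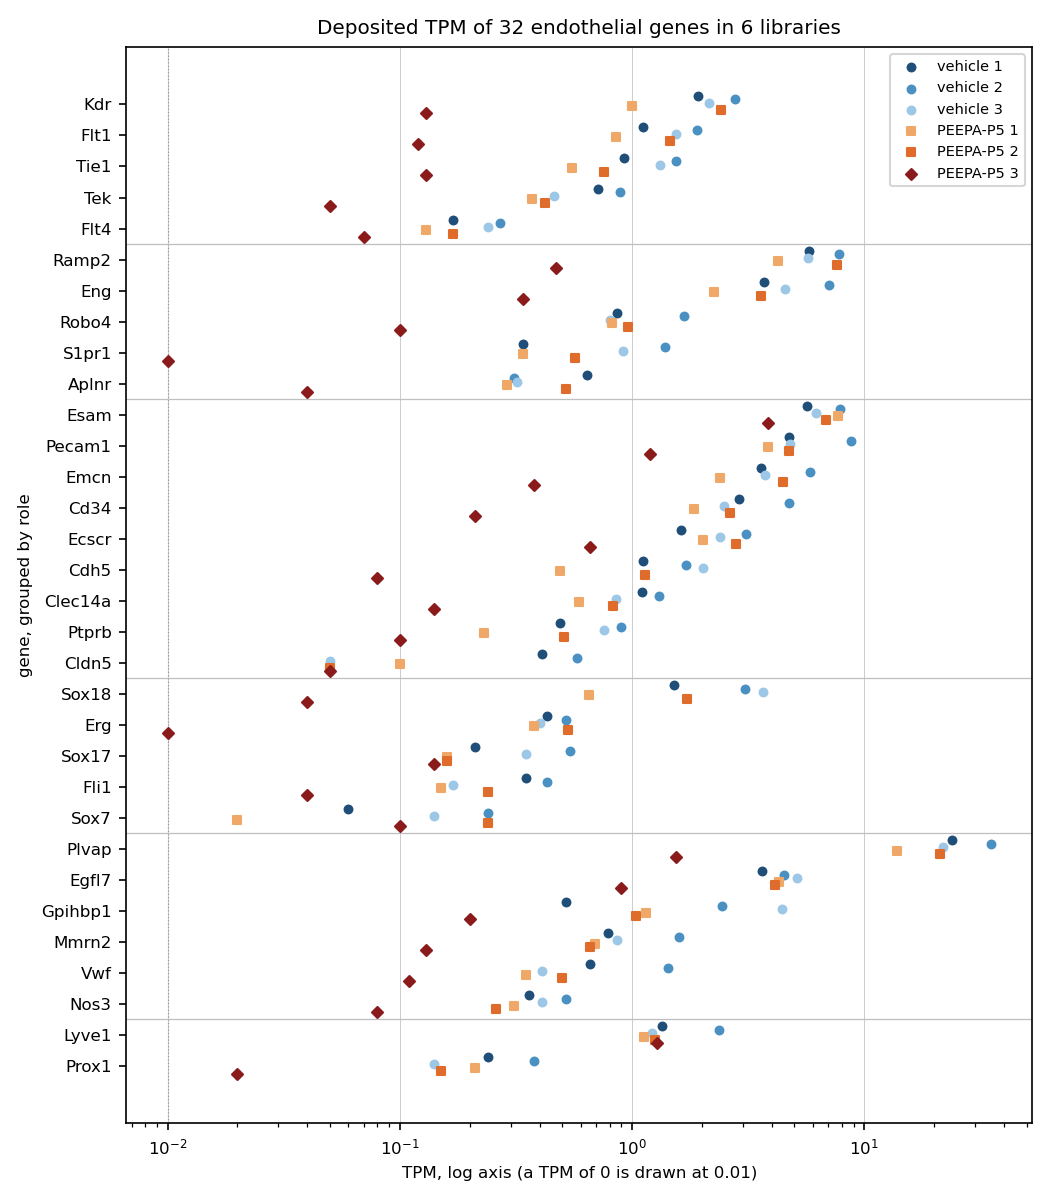
Deposited TPM on a log axis for each of the 32 endothelial genes, grouped by role, with 1 point per library and zeros drawn at 0.01. PEEPA-P5 3 (dark diamonds) lies to the left of the other libraries for most genes, while Esam, Sox7, Sox17 and Lyve1 lie closer to the rest.

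No endothelial gene passed the test between PEEPA-P5 and vehicle. By edgeR's quasi-likelihood test over 13071 genes, with Benjamini-Hochberg adjustment at 0.05, 0 of 30 tested members were called in either direction, and 0.0% of all genes were called lower and 0.0% higher. The smallest adjusted p was 0.412, for members as for all genes. The other 2 members, Sox7 and Cldn5, had too few counts to be tested over the 6 libraries.

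The log2 difference, PEEPA-P5 minus vehicle, was below 0 for 30 of the 30 tested members, with a median of -0.97. Over all tested genes it was below 0 for 50.6%, with a median of -0.0047. At an unadjusted p under 0.05, 3 members were lower (Tie1, Sox17 and Ptprb) and 0 were higher, where 6.14% of all genes were lower and 5.92% higher. For 10 members every PEEPA-P5 library was below every vehicle library in CPM (counts scaled to library size), where 10.7% of all genes did not overlap in that direction. No member lay above without overlap, where 9.74% of all genes did. DESeq2, run as an alternative, called 0 members, while it called 0.538% of all genes lower and 0.296% higher. At an unadjusted p under 0.05 by DESeq2, 8 members were lower, where 6.85% of all genes were. With the replicate number as a block, edgeR called 0 members and 5 were lower at an unadjusted p under 0.05 (Pecam1, Tek, Vwf, Sox17 and Ptprb), where 7.06% of all genes were.

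These counts lean on how genes entered the test. The filter asked for about 0.6 CPM in 3 libraries, and 17 of the 30 tested members met it in all 3 vehicle libraries but not in all 3 PEEPA-P5 libraries. Such members entered through the group where they were high, so the counts are a description of the tested members and no support for a direction. With no filter on counts, 31 of the 32 members had a difference below 0, with a median of -0.95.

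Without PEEPA-P5 3 the members were nearer to the vehicle level. Of 31 members then tested, 28 had a log2 difference below 0 (51.5% of all genes), the median was -0.56, and edgeR again called 0. At an unadjusted p under 0.05, 4 members were lower (Tie1, Sox17, Eng and Plvap), where 4.92% of all genes were lower. Groups of 3 and 2 libraries did not overlap for 11 members in CPM, where 15.6% of all genes did not overlap in that direction. Esam, Erg and Ecscr then had differences above 0.

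**Figure D2:**
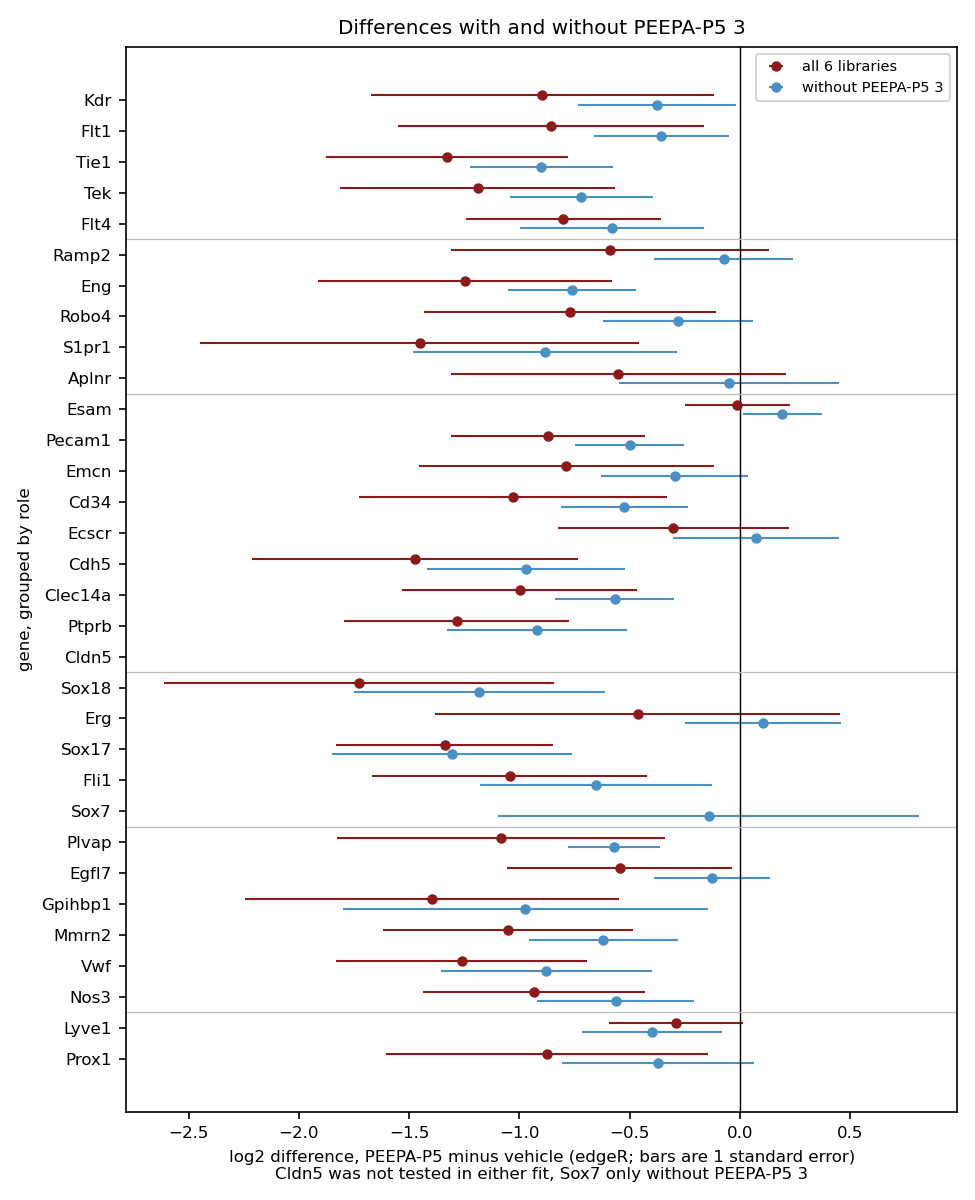
Log2 difference of PEEPA-P5 minus vehicle for each endothelial gene by edgeR, from all 6 libraries and without PEEPA-P5 3, with bars of 1 standard error. Most points move towards 0 when PEEPA-P5 3 is left out (Lyve1 moves away from it), most stay below 0, and Esam, Erg and Ecscr move above it.

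The receptor tyrosine kinases bind VEGF (Kdr, Flt1 and, in lymphatic vessels, Flt4) or belong to the angiopoietin system (Tek and its partner Tie1). Kdr had the highest level of the 5, at 1.93, 2.77 and 2.15 TPM in vehicle 1 to 3 and 1.00, 2.42 and 0.13 TPM in PEEPA-P5 1 to 3. PEEPA-P5 2 was between the vehicle libraries and PEEPA-P5 3 far under them, so the groups overlapped. The log2 difference of Kdr was -0.90 ± 0.78 (SE) over all 6 libraries and -0.38 ± 0.36 without PEEPA-P5 3, with adjusted p of 0.639 and 0.722 by edgeR.

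Tie1 and Tek did not overlap between groups. Tie1 was at 0.92, 1.55 and 1.32 TPM in vehicle and at 0.55, 0.76 and 0.13 TPM in PEEPA-P5. Its log2 difference was -1.33 ± 0.55 (SE; edgeR adjusted p = 0.412) and -0.90 ± 0.32 without PEEPA-P5 3 (adjusted p = 0.556). Tek was at 0.71, 0.89 and 0.46 TPM in vehicle and at 0.37, 0.42 and 0.05 TPM in PEEPA-P5. For both receptors the lowest vehicle library and the highest PEEPA-P5 library lay close together, and the level in PEEPA-P5 3 was the lowest of all. The log2 difference of Tek was -1.19 ± 0.62 (edgeR adjusted p = 0.469) and -0.72 ± 0.32 without PEEPA-P5 3 (adjusted p = 0.556). Flt1 and Flt4 overlapped between groups. Their differences were -0.86 and -0.80 over all 6 libraries and -0.36 and -0.58 without PEEPA-P5 3.

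Among the other receptors, Ramp2, the partner that turns the calcitonin receptor-like receptor into an adrenomedullin receptor, had the highest level. It was at 5.76, 7.79 and 5.74 TPM in vehicle and at 4.23, 7.60 and 0.47 TPM in PEEPA-P5. PEEPA-P5 2 was near the top of the vehicle range, and the log2 difference without PEEPA-P5 3 was -0.07 ± 0.31, against -0.59 ± 0.72 with it (edgeR adjusted p = 0.941 and 0.736). Ramp2 shares exons with Vps25 on the same strand, at 106 to 126 TPM, so reads could be assigned to either gene.

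Eng, endoglin, a co-receptor for TGF-beta family ligands, did not overlap between groups. It was at 3.71, 7.06 and 4.55 TPM in vehicle and at 2.25, 3.58 and 0.34 TPM in PEEPA-P5. The gap between vehicle 1 and PEEPA-P5 2 was small beside the spread within vehicle. Its log2 difference was -1.25 ± 0.67 (edgeR adjusted p = 0.476), and -0.76 ± 0.29 without PEEPA-P5 3 (adjusted p = 0.556).

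S1pr1, a receptor for sphingosine 1-phosphate, was at 0.34, 1.39 and 0.91 TPM in vehicle and at 0.34, 0.57 and 0 TPM in PEEPA-P5. No read of it was counted in PEEPA-P5 3. Set against a floor of 3 counts in that library, it was at least 9.54-fold lower there than the mean CPM of the other 5 libraries, counting error only. For S1pr1 the log2 difference was -1.45 ± 0.996 over all libraries, a fitted value that depends on the prior count, and -0.88 ± 0.60 without PEEPA-P5 3 (edgeR adjusted p = 0.551 and 0.625). Robo4, a guidance receptor of vessels, and Aplnr, the apelin receptor, overlapped between groups. Their log2 differences were -0.77 and -0.55 over all 6 libraries and -0.28 and -0.05 without PEEPA-P5 3.

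Junction and surface proteins held both the widely used marker Pecam1 and the member that differed least. Pecam1 (CD31) was at 4.74, 8.74 and 4.77 TPM in vehicle and at 3.86, 4.73 and 1.19 TPM in PEEPA-P5. The groups did not overlap, but vehicle 1 and PEEPA-P5 2 were almost equal. Its log2 difference was -0.87 ± 0.44 (edgeR adjusted p = 0.458) and -0.50 ± 0.25 without PEEPA-P5 3 (adjusted p = 0.556).

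Esam, an adhesion molecule of endothelial junctions, was at 5.69, 7.86 and 6.20 TPM in vehicle and at 7.73, 6.83 and 3.85 TPM in PEEPA-P5. PEEPA-P5 1 and 2 lay inside the vehicle range and PEEPA-P5 3 below it. The log2 difference was -0.01 ± 0.24 over all libraries and 0.19 ± 0.18 without PEEPA-P5 3, with edgeR adjusted p of 0.985 and 0.717. Esam ends 936 bases from Vsig2 on the same strand in the GENCODE M21 annotation, and Vsig2, looked at after its values were seen, was at 643 to 831 TPM, highest in PEEPA-P5 3. Its part in the Esam reads was not tested.

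Clec14a, a lectin-like receptor of endothelium, was at 1.10, 1.31 and 0.85 TPM in vehicle and at 0.59, 0.83 and 0.14 TPM in PEEPA-P5. Ptprb, the phosphatase VE-PTP that acts on Tek and VE-cadherin, was at 0.49, 0.90 and 0.76 TPM in vehicle and at 0.23, 0.51 and 0.10 TPM in PEEPA-P5. Clec14a did not overlap between groups, whereas PEEPA-P5 2 lay just above vehicle 1 for Ptprb. The log2 differences were -0.998 ± 0.53 for Clec14a and -1.28 ± 0.51 for Ptprb, with edgeR adjusted p of 0.472 and 0.412. Without PEEPA-P5 3 they were -0.57 ± 0.27 and -0.92 ± 0.41 (adjusted p = 0.556 for both).

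Of the remaining surface proteins, Cdh5 (-1.47), Cd34 (-1.03), the sialomucin Emcn (-0.79) and Ecscr (-0.30) had log2 differences below 0 over all 6 libraries. Without PEEPA-P5 3 these were -0.97, -0.52, -0.30 and 0.07. Cd34 did not overlap between groups in CPM but did in TPM, where PEEPA-P5 2 (2.64) was above vehicle 3 (2.5). Cldn5, a tight junction claudin, was counted 8, 11 and 1 times in vehicle and 2, 1 and 1 times in PEEPA-P5, too few to test. Its reads came mostly from vehicle 1 and 2.

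Of the 5 transcription factors, 4 were tested, and all 4 had log2 differences below 0 over the 6 libraries. Sox18, a SOX factor of blood and lymph vessels, was at 1.51, 3.06 and 3.66 TPM in vehicle and at 0.65, 1.73 and 0.04 TPM in PEEPA-P5. PEEPA-P5 2 was above vehicle 1, so the groups overlapped. The log2 difference was -1.73 ± 0.88 (edgeR adjusted p = 0.462) and -1.18 ± 0.57 without PEEPA-P5 3 (adjusted p = 0.556). A single read of Sox18 was counted in PEEPA-P5 3, which is 2.34% of the mean CPM of the other 5 libraries (95% exact interval 0.0592% to 13.0%).

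Sox17, an arterial SOX factor, was at 0.21, 0.54 and 0.35 TPM in vehicle and at 0.16, 0.16 and 0.14 TPM in PEEPA-P5. The 3 PEEPA-P5 libraries were close together, below every vehicle library. These levels rest on few reads: 12, 31 and 22 counts in vehicle and 7, 10 and 7 in PEEPA-P5. Its log2 difference was -1.34 ± 0.49 and -1.31 ± 0.54 without PEEPA-P5 3, with edgeR adjusted p of 0.412 and 0.556. Sox7, tested only without PEEPA-P5 3, was counted 3, 12 and 7 times in vehicle and 1, 12 and 5 times in PEEPA-P5. PEEPA-P5 1 was below every vehicle library and the other 2 within their range, and the log2 difference without PEEPA-P5 3 was -0.14 ± 0.96.

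The ETS factors were Erg and Fli1. Erg had no count in PEEPA-P5 3, at least 6.33-fold below the mean CPM of the other 5 libraries at a floor of 3 counts. Its log2 difference was -0.46 ± 0.92 over all libraries and 0.11 ± 0.35 without PEEPA-P5 3 (edgeR adjusted p = 0.841 and 0.925). Fli1, also known from blood cells, had a log2 difference of -1.04, or -0.65 without PEEPA-P5 3, and overlapped between groups.

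Plvap, which forms the diaphragms of fenestrated capillaries, was the most abundant member. It was at 23.8, 35.1 and 21.8 TPM in vehicle and at 13.9, 21.1 and 1.55 TPM in PEEPA-P5. Every PEEPA-P5 library was below every vehicle library, with PEEPA-P5 2 just under vehicle 3. The log2 difference was -1.08 ± 0.74 (edgeR adjusted p = 0.559) and -0.57 ± 0.21 without PEEPA-P5 3 (adjusted p = 0.556). Plvap made up 25.9% to 33.2% of the members' summed TPM in the other 5 libraries and 12.2% in PEEPA-P5 3. Esam moved the other way, from 6.92% to 14.5% of the sum in the other 5 to 30.3% in PEEPA-P5 3.

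Nos3, the endothelial nitric oxide synthase, was at 0.36, 0.52 and 0.41 TPM in vehicle and at 0.31, 0.26 and 0.08 TPM in PEEPA-P5. Mmrn2, a matrix glycoprotein that binds Clec14a, was at 0.79, 1.60 and 0.86 TPM in vehicle and at 0.69, 0.66 and 0.13 TPM in PEEPA-P5. Neither overlapped between groups. The log2 differences were -0.93 ± 0.51 for Nos3 and -1.05 ± 0.56 for Mmrn2, with edgeR adjusted p of 0.476 and 0.474. Without PEEPA-P5 3 they were -0.56 ± 0.36 and -0.62 ± 0.34 (adjusted p = 0.602 and 0.566). Vwf, the platelet-binding factor (-1.26), Egfl7, a secreted vessel protein (-0.55), and Gpihbp1, which carries lipoprotein lipase on capillaries (-1.40), overlapped between groups. Without PEEPA-P5 3 their log2 differences were -0.88, -0.13 and -0.97. Leaving out both libraries numbered 3, they were -1.16 for Vwf, 0.05 for Egfl7 and -0.14 for Gpihbp1. Gpihbp1 varied most within vehicle of these 3, at 0.52, 2.45 and 4.44 TPM.

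Lyve1, a hyaluronan receptor of lymphatic vessels that some macrophages also carry, was at 1.34, 2.37 and 1.22 TPM in vehicle and at 1.13, 1.25 and 1.28 TPM in PEEPA-P5. PEEPA-P5 3 was the highest of its group, unlike for most members, and the groups overlapped. The log2 difference was -0.29 ± 0.30 and, without PEEPA-P5 3, -0.40 ± 0.32 (edgeR adjusted p = 0.691 and 0.669). Prox1, the transcription factor of lymphatic identity, was at most 0.38 TPM and had a log2 difference of -0.88, or -0.37 without PEEPA-P5 3, with overlapping groups.

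Several of these genes overlap another gene, and no source used here says whether strand was kept. In GENCODE M21, exons overlap on the opposite strand for Egfl7 with Agpat2 (129 to 167 TPM), Eng with Fpgs, Nos3 with Atg9b, Ecscr with 1700066B19Rik, Prox1 with Prox1os, Cd34 with Gm16897 and Sox17 with Gm37587. Reads of such pairs cannot be told apart without the strand.

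The members' level differed from library to library within each group. As a level for each library, the median was taken over the 30 tested members of log2 CPM minus the gene's mean over 6 libraries. It was 0.35, 0.91 and 0.56 in vehicle 1 to 3 and -0.08, 0.28 and -2.05 in PEEPA-P5 1 to 3. The groups did not overlap in this median, but PEEPA-P5 2 was just below vehicle 1, whereas PEEPA-P5 3 was far below every other library. PEEPA-P5 3 was the lowest library for 28 of the 30 members, with Lyve1 and Sox17 lowest in PEEPA-P5 1. The highest library was vehicle 2 for 18 members and vehicle 3 for 7. PEEPA-P5 2 lay within the vehicle range for 16 of 30 members and below it for 11, and PEEPA-P5 1 lay below it for 23. In bulk libraries, fewer endothelial cells and less RNA of these genes per cell cannot be told apart.

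PEEPA-P5 3 was then set against the mean CPM of the other 5 libraries. Its median over the 30 tested members was 12.6%, against 99.1% over all tested genes, and 24 of 30 members were under 25%, where 8.52% of all genes were. By exact 95% intervals, which cover counting error only, 28 of the 30 tested members were below 100%, where 35.2% of all tested genes were. Plvap was at 7.93% (5.83% to 10.6%), Kdr at 7.63% (4.06% to 13.0%) and Pecam1 at 25.6% (19.6% to 33%). The least reduced were Lyve1 at 104% (77.8% to 137%), Sox7 at 82.8% (26.9% to 193%), Esam at 65.7% (53.8% to 79.5%) and Sox17 at 49.2% (19.8% to 102%). The spread between libraries is not part of these intervals, and members named here as least reduced were picked by this value.

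**Figure D3:**
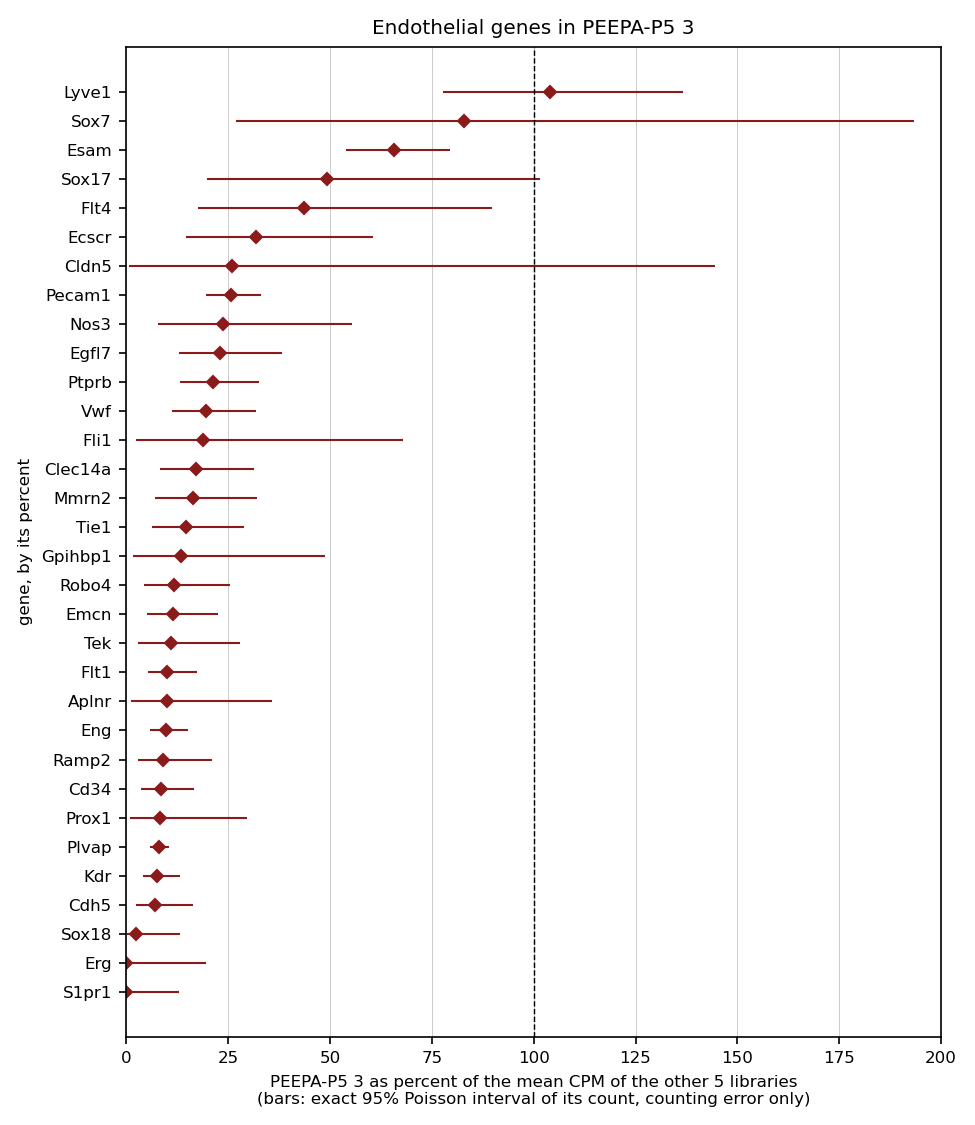
CPM of each endothelial gene in PEEPA-P5 3 as a percent of the mean of the other 5 libraries, on a linear axis with 95% exact Poisson intervals. Most genes lie near the members' median of 12.6%, and Lyve1, Sox7, Esam and Sox17 lie highest.

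The same library was low for most listed markers of fibroblasts, of smooth muscle and pericytes, and of leukocytes. Its median percent of the other 5 libraries was 10.4% over 15 tested fibroblast genes, 11.2% over 15 smooth muscle and pericyte genes and 15.6% over 12 leukocyte genes, and it was 119% over 14 gastric epithelial genes. Of these 14 gastric genes, 11 were at or above 100%, while Gast was at 4.23%, Pgc at 10.2% and Muc6 at 31.9%. The highest tested genes of the low lists were Gsn (fibroblast, 134%), Notch3 (smooth muscle and pericyte, 75.8%) and Cd68 (leukocyte, 72.6%). Other lists were less low or higher. The median was 25.1% over 4 enteric nerve and glia genes, 67.4% over 4 platelet and red cell genes and 162% over 2 adipocyte genes. As a level per library, fibroblast genes stood at 0.83, 0.96 and -0.04 in vehicle and at 0.09, 0.66 and -2.61 in PEEPA-P5. Smooth muscle and pericyte genes stood at 0.74, 1.11 and 0.22 in vehicle and at -0.38, 0.69 and -2.52 in PEEPA-P5. For both lists PEEPA-P5 3 was far below the other 5 libraries, which overlapped between groups. Leaving out PEEPA-P5 3, 8 of 15 fibroblast genes were lower in PEEPA-P5 with a median of -0.13, and 13 of 15 smooth muscle and pericyte genes with a median of -0.35, beside 28 of 31 endothelial genes with a median of -0.56. Without both libraries numbered 3 the counts were 13 of 15 (median -0.29), 14 of 15 (-0.57) and 27 of 31 (-0.58), so smooth muscle and endothelial medians were then nearly equal. The part of stromal content in the endothelial differences was not tested.

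**Figure D4:**
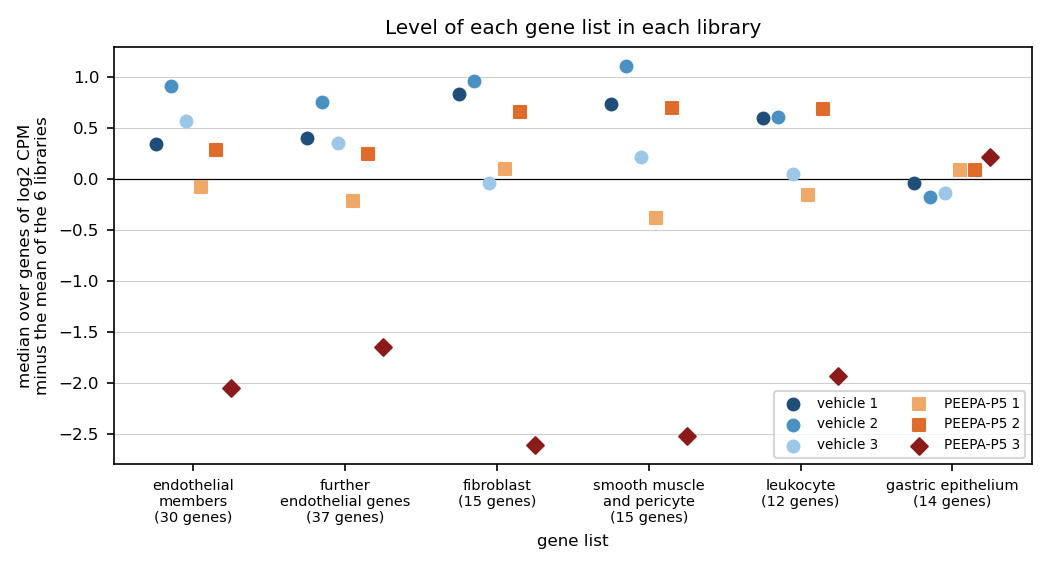
Level of each marker list by library: the median over its tested genes of log2 CPM minus the gene's mean over the 6 libraries. PEEPA-P5 3 is about 2 log2 units below the mean for endothelial genes (-2.05), with fibroblast, smooth muscle and leukocyte lists low beside it and gastric epithelial genes at 0.22.

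Other endothelial genes were read from a list of 50, of which 49 were in the table and 37 were tested. Differences were below 0 for 34 and above 0 for 3, with a median of -0.76, and 0 passed the edgeR test while 7 were lower at an unadjusted p under 0.05. Over all genes 50.6% were below 0, 0.0% were called and 6.14% were lower at an unadjusted p under 0.05. Without PEEPA-P5 3, 34 of 42 listed genes were below 0, with a median of -0.40, where 51.5% of all genes were below 0. The 4 with the highest mean TPM were above most of the 32 members in level. Fabp4, a fatty acid carrier, was at 24.98 to 94.7 TPM, Nostrin, which binds Nos3, at 41.4 to 53.45 TPM over vehicle and 46.3 to 54.4 TPM over PEEPA-P5, and the membrane protein Tspan7 at 20.9 to 35.5 TPM. Nr2f2, the venous factor COUP-TFII, was at 9.83, 12.7 and 18.3 TPM in vehicle and at 6.21, 5.54 and 7.77 TPM in PEEPA-P5. Its groups did not overlap and PEEPA-P5 3 was not the lowest, with a log2 difference of -0.99 ± 0.31 (edgeR adjusted p = 0.412) and of -1.21 ± 0.35 without that library (adjusted p = 0.556).

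The ligands of these receptors did not stand low together. Of 21 listed angiogenic ligands, 19 were in the table and 16 were tested. Differences were below 0 for 9 and above 0 for 7, where 50.6% of all genes were below 0. The edgeR test called 0 ligands and 0.0% of all genes. At an unadjusted p under 0.05, 2 ligands were lower (Vegfb and Slit3), where 6.14% of all genes were. Slit3 had the lowest log2 difference of the list, -2.72, with at most 37 counts in a library, and Apln the highest, 0.71. Without PEEPA-P5 3, 10 ligands were below 0 and 6 above. Vegfa, the main ligand of Kdr, was at 21.4, 24.2 and 23.2 TPM in vehicle and at 27.5, 24.0 and 11.9 TPM in PEEPA-P5. PEEPA-P5 1 was the highest library and PEEPA-P5 3 the lowest, and the log2 difference was -0.05 ± 0.25 (edgeR adjusted p = 0.942). Without PEEPA-P5 3 it was above 0, at 0.21 ± 0.13 (adjusted p = 0.591). Vegfb, a ligand of Flt1, was at 16.02, 29.3 and 51.6 TPM in vehicle and at 12.1, 14.8 and 4.51 TPM in PEEPA-P5, without overlap. Its log2 difference was -1.59 ± 0.56 (adjusted p = 0.412) and -1.26 ± 0.59 without PEEPA-P5 3 (adjusted p = 0.556). Sema3c and Pdgfb had log2 differences of 0.24 and 0.11, which became 0.05 and -0.30 without PEEPA-P5 3.

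Receptor partners and signalling genes were listed as 16, all in the table, and 14 were tested. Differences were below 0 for 10 and above 0 for 4, where 50.6% of all genes were below 0. The edgeR test called 0 of these genes and 0.0% of all genes. At an unadjusted p under 0.05, 1 was lower and 1 higher, where 6.14% of all genes were lower and 5.92% higher. Without PEEPA-P5 3, 11 of 15 tested genes of this list were below 0. Unc5b (0.29), a netrin receptor that also binds Robo4, Epas1 (0.07) and Hif1a (-0.02), subunits of the hypoxia factors, had the log2 differences given here over all 6 libraries. Without PEEPA-P5 3 they were 0.08, -0.09 and 0.05, so Epas1 and Hif1a changed sign. Notch4, a Notch receptor known from endothelium, was at 6.91, 6.54 and 4.50 TPM in vehicle and at 7.69, 7.30 and 8.16 TPM in PEEPA-P5. Every PEEPA-P5 library was above every vehicle library, with PEEPA-P5 3 the highest, and the log2 difference was 0.49 ± 0.16 (edgeR adjusted p = 0.412) and 0.37 ± 0.15 without PEEPA-P5 3 (adjusted p = 0.556).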

How the data were processed

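RNA-seq of antrum epithelium was compared between PEEPA-P5 and vehicle, 3 libraries each. Per the labels' protocols, Trizol RNA went into Illumina TruSeq libraries. The submitters' processing notes name the build mm9, RSEM 1.2.12 and Bowtie2 2.2.5, without roles. Per the file headers, the authors deposited expected counts, TPM and FPKM per gene and library. Of the deposited expected counts, which RSEM estimates, 9.82% were not whole, and all were rounded to whole numbers for testing. TPM is as deposited by the authors, and the deposited FPKM and group means were not used. Every column of per-library values matched a label.

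Counts were tested over the whole table with edgeR 4.0.16 (robust quasi-likelihood, TMM factors, its expression filter) in R 4.3.3, checked on simulated data. The simulation gave every gene the same fixed spread, so it does not show how the test performs at the spread of these libraries. CPM uses TMM-scaled library sizes, and log2 CPM a prior count of 2. Standard errors of edgeR differences were back-calculated, as the size of the difference divided by the square root of the test's F statistic. DESeq2 1.42.0, limma 3.58.1, other scalings and filters, the replicate number as a block, and leaving out libraries were alternatives. For libraries with the same number, deviations from their group's mean had correlations of 0.24, 0.35 and 0.24. All 3 exceed 0.1, as does 0.18 for vehicle 2 with PEEPA-P5 1, which are numbered differently. The labels do not say what the numbers share, and the main test did not pair them. The replicate number entered as a block in an alternative fit. Promoters and gene overlaps came from RefSeq GRCm38.p6 and GENCODE M21.

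The 32 members and the other lists were chosen with earlier results of these data known, so no list was tested. Values in every library are given for the most abundant member of each role and any at 10 TPM or more, the 3 with the smallest p, up to 8 without overlap, the 3 highest and 3 lowest in PEEPA-P5 3, and those not tested. Of the further endothelial, angiogenic ligand and receptor partner lists, the 4 genes with the highest mean TPM are named. Other genes of the lists, including those of other cell types, were named outside that rule, some by their values.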

Additional observations from a re-analysis of the deposited data

How the results depend on the processing

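No endothelial gene was called under any of the 18 alternatives to the edgeR test of all 6 libraries. Over all genes, edgeR called 0, DESeq2 called 110, and leaving out 1 library gave 0 to 1 (1 without vehicle 1); at an unadjusted p under 0.05 the count was 1576, and 717 to 2070 with 1 library left out. The number of members lower at an unadjusted p under 0.05 was 3, and became 8 with DESeq2, 6 with limma-voom, 7 with limma-trend on log2(TPM + 1) and 5 with the replicate block. Over all genes, in either direction, these fits had 1831, 1544, 1303 and 1788. With 1 library left out the members' number ran from 0 (without vehicle 2 or PEEPA-P5 1), with 1 without vehicle 3, to 9 (without PEEPA-P5 2). Over all genes, in either direction, those fits had 717, 1008, 759 and 1691. The replicate block changed no other call. With at least 50 counts in 3 libraries, 18 of 18 tested members were below 0. The members' median of -0.97 ran from -1.50 to -0.56 with 1 library left out, being nearest to 0 without PEEPA-P5 3, and was -0.58 without both libraries numbered 3. The level of PEEPA-P5 3 was -0.65 on log2(TPM + 1), where the pseudocount exceeds most members' TPM. Of 283 differences of 16 named members, 278 kept their sign and 5 did not, all of Esam: 0.0010 with no count filter, 0.04 without vehicle 2, 0.03 without vehicle 3, 0.19 without PEEPA-P5 3 and 0.23 without both libraries numbered 3 (with 1 library left out, -0.19 to 0.19). Over all genes the median difference was -0.10 on log2(TPM + 0.1) and -0.09 with library totals, so members' differences there read relative to that shift. Depth limits the low members: most had 20 or fewer counts in PEEPA-P5 3.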

Other observations

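Cd36, a fatty acid carrier of capillaries and other cells, was at 2.5, 12.01 and 16.3 TPM in vehicle and at 0.53, 2.00 and 0.19 TPM in PEEPA-P5. Lpl, the lipase that Gpihbp1 carries, was at 4.76, 13.45 and 23.2 TPM in vehicle and at 0.84, 4.34 and 0.64 TPM in PEEPA-P5. Vehicle 3 was the highest library for both, as it was for Gpihbp1, Vegfb and Fabp4. The acid pump gene Atp4a of parietal cells had the same order within vehicle, at 115, 567 and 892 TPM, and was at 1.51, 120 and 0.07 TPM in PEEPA-P5. These genes were picked after their values were seen, and the part of parietal cell content in them was not tested.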
